A study of Mus musculus with 6 samples.

Results

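Mature microRNAs (miRNAs) of the miR-210, miR-31, miR-132 and miR-212 precursors were examined in primary dermal fibroblasts with a constitutively active form of Nrf2. The members were the 8 arms named for these 4 precursors among the 1907 miRNAs listed in each count file. All 8 were found and all 8 were among the 697 miRNAs with enough counts to be tested. Fibroblasts of the 3 caNrf2 mice (genotype Col1a2Cre-caNrf2) carried the active Nrf2 together with Cre recombinase. Fibroblasts of the 3 ctrl mice (Col1a2Cre-wt) carried the same Cre alone, so the controls share the Cre. Col1a2 encodes a chain of type I collagen, and its promoter drives expression in fibroblasts. All mice were newborn, on a mixed background of 50% C57Bl/6 and 50% FVB/N, and the skin cells were grown for 6 days and taken at passage 1. Per the design text the cells of each group came from 3 mice.

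Nrf2 is the transcription factor of the antioxidant response. miR-210 is the best known miRNA of hypoxia, where the hypoxia-inducible factor HIF-1 raises its transcription, and it represses genes of mitochondrial iron-sulfur cluster assembly. miR-31 is abundant in the epidermis and rises in keratinocytes at wound edges. miR-132 and miR-212 are cut from neighbouring hairpins of the same primary transcript, which the factor CREB activates in neurons, and miR-132 is also raised in healing skin. Each hairpin gives a 5p and a 3p arm, and usually 1 of them accumulates.

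The mature sequences are given because the seed (bases 2 to 8, in capitals), which pairs with target mRNAs, shows which arms can share targets. They are from RefSeq (GRCm38.p6, the reference release of the mm10 build that the submitters name), and each of the 8 names matched 1 entry.
mmu-miR-210-3p: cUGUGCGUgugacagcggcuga
mmu-miR-210-5p: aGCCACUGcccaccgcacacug
mmu-miR-31-5p: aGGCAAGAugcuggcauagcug
mmu-miR-31-3p: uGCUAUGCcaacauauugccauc
mmu-miR-132-3p: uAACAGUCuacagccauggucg
mmu-miR-132-5p: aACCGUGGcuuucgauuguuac
mmu-miR-212-3p: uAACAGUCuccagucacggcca
mmu-miR-212-5p: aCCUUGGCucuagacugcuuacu
Only miR-132-3p and miR-212-3p shared a seed, AACAGUC, and no other mouse miRNA in that table had any of the 7 seeds. These arms had the same first 9 bases and agreed at 17 of 22 positions. Counted from the 5′ end, miR-212-3p differed from miR-132-3p by A10C, C14U, U17C, U20C and G22A. Compared base by base from the 5′ end without an offset, the 5p arms of these precursors agreed at 9 positions. Their seeds differed, and matches at an offset were not counted, so that number does not measure how alike these arms are. No other miRNA in the table was identical to a member.

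The hairpins of the miR-132 and miR-212 cluster are shown with the mature arms in capitals, because the called arm, miR-212-5p, and the arms it is compared with are cut from them.
Mir212, chromosome 11, 75173388 to 75173478, plus strand: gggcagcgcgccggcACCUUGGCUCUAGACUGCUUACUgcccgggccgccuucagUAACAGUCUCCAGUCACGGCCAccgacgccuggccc
Mir132, chromosome 11, 75173682 to 75173747, plus strand: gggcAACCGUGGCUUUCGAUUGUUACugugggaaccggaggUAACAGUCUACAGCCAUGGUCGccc
The 203 bases between them and both hairpins lie in an intron of the noncoding transcript 1700016P03Rik (GENCODE M21, same build), and the nearest protein-coding genes are Ovca2 and Hic1. Mir31 lies at chromosome 4, 88910557 to 88910662, on the minus strand, within an exon of the long noncoding RNA AL805899.1. Mir210 lies at chromosome 7, 141221384 to 141221493, on the minus strand, between Rassf7 and Phrf1, and no annotated gene overlaps it.

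The deposited counts summed to 13733970 to 28237159 in the caNrf2 libraries and 10443268 to 20595024 in the ctrl libraries. Levels are given in CPM, the count scaled to a common library total with TMM factors, and 3 counts equalled 0.106 to 0.287 CPM. Each read stands for 1 mature miRNA of about the same length, so CPM was not divided by length. All 10 miRNAs listed as fibroblast and mesenchymal markers were tested in these libraries, and together they held 506843 to 525047 CPM in caNrf2 and 464185 to 471839 CPM in ctrl libraries (per library total, without TMM scaling). Most of that sum was miR-22-3p, miR-21a-5p and miR-143-3p. Their TMM-scaled means were 221357, 110875 and 102572 CPM in caNrf2, and 178081, 108338 and 84270 CPM in ctrl libraries. Single markers went both ways, and 2 rose and 4 fell. That is 60% called at an edgeR adjusted p under 0.05, against 25.7% of all tested miRNAs. These markers were chosen after their values were seen, so the share is a description. miR-22-3p and miR-29a-3p rose by 0.31 and 0.36 on the log2 scale, while miR-10b-5p fell by 0.56, miR-199a-5p by 0.51, miR-152-3p by 0.48 and miR-199a-3p by 0.41, and the other 4 did not pass (list median -0.12). Nrf2 is not an miRNA, so its own level was not measured. In such bulk RNA, fewer cells that make an miRNA and less of it per cell cannot be told apart.

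In all, 1 of the 8 arms passed an adjusted p of 0.05 with a higher level in caNrf2 cells, miR-212-5p, and none was lower (edgeR quasi-likelihood test, Benjamini-Hochberg adjustment over all 697 miRNAs). Over all tested miRNAs 25.7% were called, 14.1% as higher and 11.6% as lower, which sets the background for that count. Without adjustment 3 of the 8 arms had p under 0.05, against 38.0% of all tested miRNAs. The 4 arms of miR-132 and miR-212 all had positive log2 fold changes and the 4 arms of miR-210 and miR-31 all had negative ones. The median log2 fold change was -0.06 over the 8 members and 0.03 over all tested miRNAs. CPM values of the groups did not overlap for 3 arms, each higher in caNrf2. Of all tested miRNAs 41.6% had groups without overlap, 23.7% higher and 17.9% lower in caNrf2. Together the 8 arms held 0.166% ± 0.0255 of the counts in caNrf2 libraries and 0.192% ± 0.0243 in ctrl libraries (SD, n = 3 each), with overlapping groups and a two-sided exact permutation p of 0.3. The difference of these shares was -0.0265 percentage points, and -0.0411 without caNrf2 library 2 or -0.0135 without ctrl library 2. Most of each share was miR-31-5p, with 0.112% in caNrf2 and 0.143% in ctrl libraries, so the difference does not describe the 8 arms alike.

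**Figure D1:**
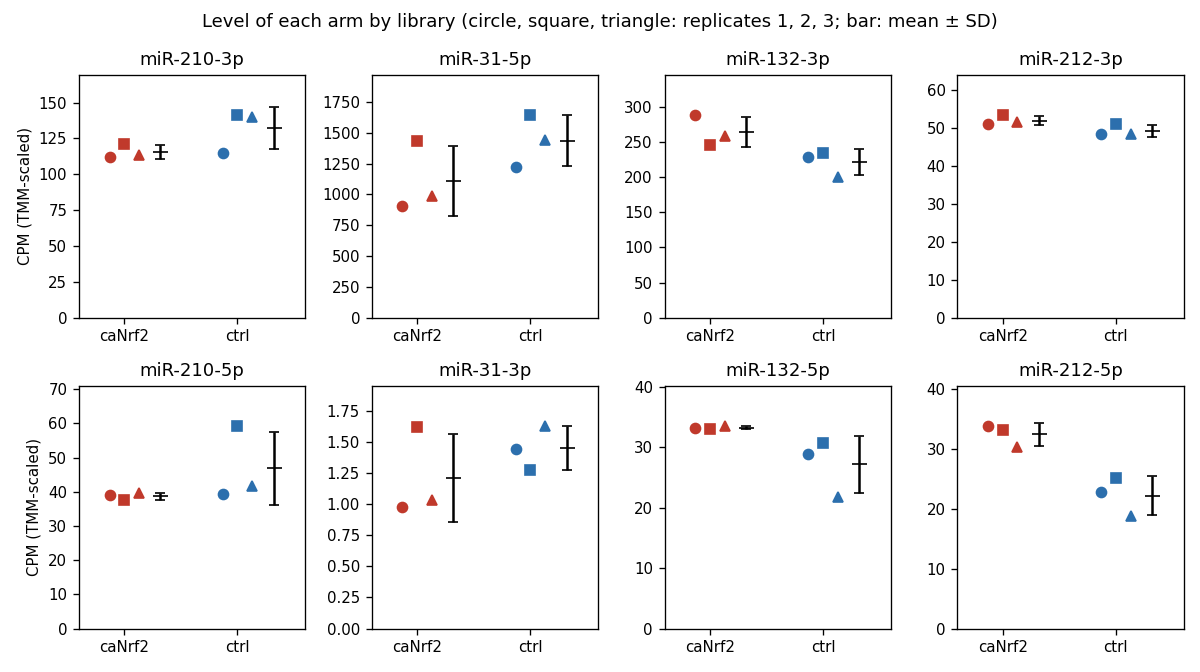
Level of each arm in TMM-scaled CPM (linear axes from 0), caNrf2 libraries in red and ctrl libraries in blue, with the mean and SD of 3 libraries beside them; the upper row has the more abundant arm of each precursor. The groups are apart for miR-132-3p, miR-132-5p and miR-212-5p and overlap for the other 5 arms.

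The miR-212 precursor gave the called difference, and it gave it in its less abundant arm. mmu-miR-212-5p had 33.9, 33.2 and 30.4 CPM in caNrf2 libraries 1, 2 and 3, against 22.8, 25.1 and 18.8 CPM in ctrl libraries 1, 2 and 3. All 3 caNrf2 libraries were above all 3 ctrl libraries, and ctrl library 3 was the lowest. The log2 fold change was 0.55 ± 0.15 (SE; 95% interval 0.21 to 0.88), or 1.46-fold, with an edgeR adjusted p of 0.0206. The call was lost without caNrf2 library 1 (adjusted p = 0.0567), 2 (0.0667) or 3 (0.0525) or ctrl library 3 (0.0881), with log2 fold changes of 0.43 to 0.64 over the fits that each leave out 1 library.

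mmu-miR-212-3p, the arm with the seed of miR-132, did not pass. It had 50.9, 53.3 and 51.5 CPM in caNrf2 libraries 1, 2 and 3, against 48.3, 51.0 and 48.4 CPM in ctrl libraries 1, 2 and 3. The lowest caNrf2 library was just below the highest ctrl library. Its log2 fold change of 0.08 ± 0.11 had a 95% interval of -0.17 to 0.33 (edgeR adjusted p = 0.657).

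mmu-miR-132-3p was the most abundant arm of the cluster and the second most abundant of the 8. It had 288, 246 and 259 CPM in caNrf2 libraries 1, 2 and 3, against 229, 234 and 200.4 CPM in ctrl libraries 1, 2 and 3. The groups did not overlap, with caNrf2 library 1 highest and ctrl library 3 lowest. The log2 fold change was 0.26 ± 0.10 (95% interval 0.04 to 0.47), or 1.19-fold, and its edgeR adjusted p of 0.0779 missed the threshold. It passed in 2 of 15 alternatives, when the test was limited to miRNAs averaging 10 CPM or more (adjusted p = 0.0434) and in libraries thinned to equal depth (0.0442).

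mmu-miR-132-5p had 33.2, 33.0 and 33.5 CPM in caNrf2 libraries 1, 2 and 3, against 28.9, 30.7 and 21.8 CPM in ctrl libraries 1, 2 and 3. The groups did not overlap, and the spread was wider in ctrl libraries. The log2 fold change of 0.29 ± 0.16 (95% interval -0.05 to 0.64) did not pass (edgeR adjusted p = 0.197), nor did it in any of 15 alternatives, and it was 0.15 without ctrl library 3. The arms with the common seed, miR-132-3p and miR-212-3p, together made up 0.0352%, 0.0298% and 0.0307% of the counts in caNrf2 libraries 1, 2 and 3, and 0.0276%, 0.0285% and 0.0245% in ctrl libraries 1, 2 and 3. These shares did not overlap, and the two-sided exact permutation p of 0.1 is the smallest that 3 against 3 libraries allow (0.2 adjusted over the pair of shares tested).

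**Figure D2:**
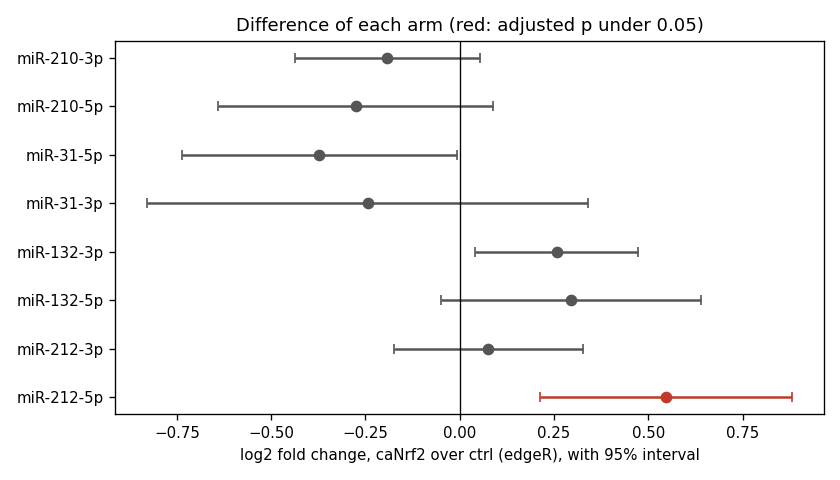
Log2 fold change of caNrf2 over ctrl for each arm from the edgeR fit, with its 95% interval as a horizontal bar. Of the 8 arms, miR-212-5p is the called one (0.55, interval 0.21 to 0.88), and the intervals of miR-132-3p and miR-31-5p also leave out 0 although their adjusted p-values miss the threshold.

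mmu-miR-31-5p was the most abundant of the 8 arms, at rank 71 of the tested miRNAs by mean CPM. It had 906, 1433 and 989 CPM in caNrf2 libraries 1, 2 and 3, against 1225, 1641 and 1443 CPM in ctrl libraries 1, 2 and 3. caNrf2 libraries 1 and 3 were below every ctrl library, and caNrf2 library 2 lay within the range of the ctrl libraries. The log2 fold change was -0.37 ± 0.16 (95% interval -0.74 to -0.01) and did not pass (unadjusted p = 0.0460, edgeR adjusted p = 0.123). Without caNrf2 library 2 it was -0.62 and passed (adjusted p = 0.00734). Without any filter on low counts it also passed, at -0.38 (0.00330), and with a replicate block at -0.39 (0.0116). In all, miR-31-5p passed in 3 of 15 alternatives.

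The opposite arm, mmu-miR-31-3p, was the least abundant member. It had 14, 39 and 29 counts in caNrf2 libraries 1, 2 and 3, and 15, 21 and 33 counts in ctrl libraries 1, 2 and 3, or 0.98 to 1.62 and 1.28 to 1.63 CPM. The groups overlapped. The exact 95% Poisson intervals, which cover counting error only, ran from 0.537 to 1.65 CPM in caNrf2 library 1 and from 0.809 to 2.38 CPM in ctrl library 1. The log2 fold change of -0.24 ± 0.26 (edgeR adjusted p = 0.544) had a 95% interval of -0.83 to 0.34, which includes 0 and the value of miR-31-5p. It was -0.54 without caNrf2 library 2, -0.16 without caNrf2 library 1, -0.12 without caNrf2 library 3 and -0.13 without ctrl library 3.

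Since miR-31 is abundant in keratinocytes, the levels of keratinocyte miRNAs are given beside it. None of the 10 listed passed the threshold, and all 10 had positive log2 fold changes, with a median of 0.36. Of all 697 tested miRNAs 373 had positive ones. The keratinocyte list summed to 2428 to 3209 CPM in caNrf2 libraries and 1670 to 2698 CPM in ctrl libraries, groups that overlapped. The most abundant of them, miR-205-5p, had 1475 ± 151 CPM in caNrf2 and 1013 ± 333 CPM in ctrl libraries (SD, n = 3 each; edgeR adjusted p = 0.0590). The part of keratinocytes in the level of miR-31-5p was not tested.

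mmu-miR-210-3p, the arm known from hypoxia, did not pass, and its log2 fold change was negative. It had 112, 121 and 114 CPM in caNrf2 libraries 1, 2 and 3, against 115, 141 and 140.01 CPM in ctrl libraries 1, 2 and 3. caNrf2 libraries were close to each other and ctrl library 1 lay among them. The log2 fold change was -0.19 ± 0.11 (95% interval -0.44 to 0.05, edgeR adjusted p = 0.230).

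mmu-miR-210-5p had 39.1, 37.5 and 39.6 CPM in caNrf2 libraries 1, 2 and 3, against 39.5, 59.2 and 41.8 CPM in ctrl libraries 1, 2 and 3. Only ctrl library 2 stood apart, and the log2 fold change of -0.28 ± 0.16 (edgeR adjusted p = 0.246) was -0.08 without it. Neither arm of miR-210 passed in any of its 15 alternatives.

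**Figure D3:**
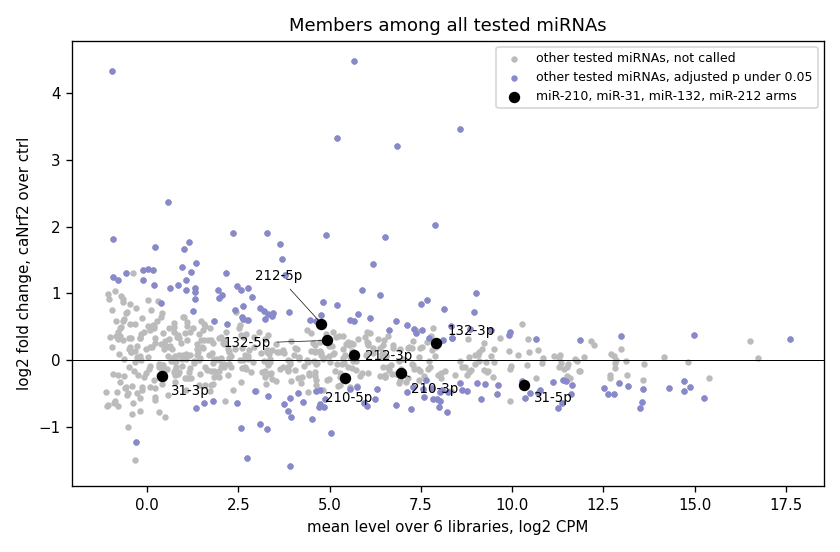
Log2 fold change of caNrf2 over ctrl against the mean level (log2 CPM) for the 697 tested miRNAs, with the 8 arms in black. The members lie between -0.37 and 0.55, inside the spread of miRNAs of similar level, and many miRNAs have larger changes.

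The arms of 1 hairpin are counted in the same library, so their ratio does not depend on library scaling. miR-31 was the most unequal, with a mean 5p to 3p ratio of 932, which was rank 11 of the 194 precursors with both arms tested. The 3p arm outweighed the 5p arm 8.08-fold for miR-132, 2.92-fold for miR-210 and 1.89-fold for miR-212, while the median over the 194 precursors was 14.1-fold from the more to the less abundant arm. miR-212 was therefore among the more balanced hairpins, at rank 169.

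The log2 ratio of 3p to 5p for miR-212 was 0.59, 0.68 and 0.76 in caNrf2 libraries 1, 2 and 3, and 1.08, 1.02 and 1.37 in ctrl libraries 1, 2 and 3. All caNrf2 values were below all ctrl values. The mean was 0.68 ± 0.09 in caNrf2 and 1.15 ± 0.19 in ctrl libraries (SD, n = 3 each), a difference of -0.48 with a two-sided exact permutation p of 0.1, the smallest possible, or 0.3 adjusted over the 6 ratios tested. Of the 194 precursors, 19.6% had arm ratios without overlap of the groups, and 13.4% were lower in caNrf2 without overlap. In a limma fit over all 194, chosen after seeing the data, the difference for Mir212 was -0.48 ± 0.14 (SE; 95% interval -0.78 to -0.18) and did not pass (unadjusted p = 0.00362, limma adjusted p = 0.0913). That fit called 0.515% of the precursors, 1 of 194, and 29 had an unadjusted p under 0.05.

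The arm ratios of the other precursors overlapped between groups. The log2 ratio of 3p to 5p for miR-132 was 2.99 ± 0.11 in caNrf2 and 3.04 ± 0.14 in ctrl libraries (exact permutation p = 0.6, difference in the limma fit -0.05, 95% interval -0.34 to 0.24). For miR-210 it was 1.58 ± 0.10 in caNrf2 and 1.51 ± 0.25 in ctrl libraries (exact permutation p = 0.9, limma difference 0.07, 95% interval -0.23 to 0.37). For miR-31 the log2 ratio of 5p to 3p was 9.81 ± 0.05 in caNrf2 and 9.91 ± 0.33 in ctrl libraries (exact permutation p = 1.0, limma difference -0.10, 95% interval -0.69 to 0.49). These 3 small differences turned their sign when 1 ctrl library was left out, to 0.03 without ctrl library 3 for miR-132, and to -0.06 and 0.09 without ctrl library 2 for miR-210 and miR-31.

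Ratios between the neighbouring hairpins were compared in the same way. The log2 ratio of miR-132-5p to miR-212-5p was -0.03, -0.01 and 0.14 in caNrf2 libraries 1, 2 and 3, and 0.34, 0.29 and 0.21 in ctrl libraries 1, 2 and 3. Every caNrf2 value was below every ctrl value (difference -0.25, exact permutation p = 0.1, adjusted 0.3). The log2 ratio of miR-132-3p to miR-212-3p was 2.50, 2.21 and 2.33 in caNrf2 libraries 1, 2 and 3, and 2.25, 2.20 and 2.05 in ctrl libraries 1, 2 and 3. Those groups overlapped (difference 0.18, exact permutation p = 0.2, adjusted 0.4), and the difference was 0.10 without caNrf2 library 1.

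**Figure D4:**
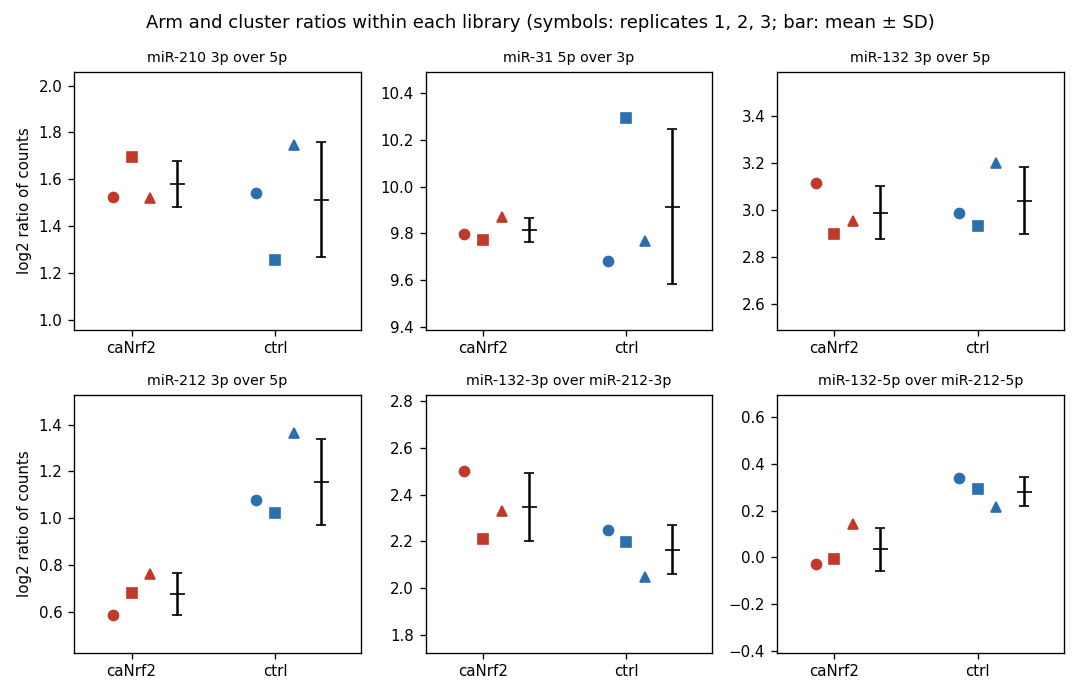
Log2 ratios of counts within each library for the arms of each precursor and for the neighbouring precursors, caNrf2 in red and ctrl in blue, with the mean and SD of 3 libraries; the axes do not start at 0. The groups are apart for miR-212 3p over 5p and for miR-132-5p over miR-212-5p.

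**Figure D5:**
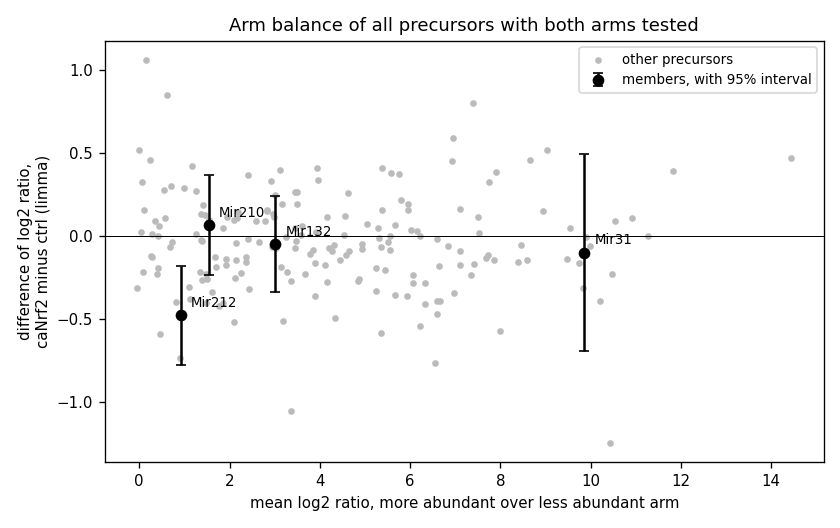
Difference of the log2 arm ratio (caNrf2 minus ctrl, limma) against the mean log2 ratio of the more to the less abundant arm for 194 precursors, with 95% intervals for the 4 precursors of the members. The interval of Mir212 (-0.78 to -0.18) leaves out 0 and those of Mir210, Mir31 and Mir132 include it.

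miR-132 and miR-212 are best known from neurons and are also made by activated leukocytes, so markers of both are given beside them. Of 7 listed neural miRNAs 5 were tested and 3 rose, or 60%, against 14.1% of all tested miRNAs called higher. miR-9-5p, miR-338-3p and miR-128-3p rose by 0.68, 0.60 and 0.41 on the log2 scale (edgeR adjusted p = 0.0219, 0.0204 and 0.00551). miR-218-5p and miR-219a-5p did not pass. The neuronal miR-124-3p had 9 counts over the caNrf2 libraries and 8 over the ctrl libraries, and miR-137-3p had 5 and 1. Neither was tested. The neural list summed to 668 to 707 CPM in caNrf2 and 542 to 691 CPM in ctrl libraries, groups that overlapped. Most of that sum was miR-218-5p, with 458 ± 19.2 CPM in caNrf2 and 445 ± 82.5 CPM in ctrl libraries (SD, n = 3 each). Of 5 leukocyte miRNAs 4 rose, or 80%, against the same 14.1% (list median 1.77 on the log2 scale). The 5 summed to 161 to 232 CPM in caNrf2 and 34.5 to 66.1 CPM in ctrl libraries. The leukocyte rises include both arms of the miR-142a hairpin. The neural and leukocyte markers were chosen after their values were seen, so their shares are a description and not a test. Rises were not particular to these lists. Of 5 listed skeletal muscle miRNAs 4 were tested and 4 rose (list median 0.89). Of 5 endothelial and erythroid miRNAs 1 rose. The part of any of these cell types in the levels of miR-132 and miR-212 was not tested.

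Other miRNAs reported in hypoxia were described from a list of 18 that leaves out the members. Of 16 tested, 2 rose and 4 fell, and 10 did not pass, and the median log2 fold change was -0.05. The share called, 37.5%, was above that of all tested miRNAs, and the calls went both ways. This list and the next were chosen with earlier results of these data known, so their shares are a description. miR-23b-3p rose 1.37-fold, with 799.9 ± 62.3 CPM in caNrf2 and 583 ± 43.2 CPM in ctrl libraries (SD, n = 3 each). miR-322-5p, the mouse counterpart of human miR-424, fell by 0.72 on the log2 scale, miR-181b-5p by 0.51 and miR-199a-5p by 0.51 (edgeR adjusted p = 0.000360, 0.000945 and 0.00269). These named calls held in all 15 alternatives, as they did for miR-146a-5p, miR-99a-5p and miR-130a-3p of the next list.

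Of 17 tested miRNAs reported in skin wound repair, besides the members, 2 rose and 4 fell, or 35.3%, and the median log2 fold change was 0.05. miR-146a-5p, which dampens inflammatory signalling, rose 1.84-fold, and miR-29a-3p, a repressor of collagen genes, rose 1.28-fold. miR-99a-5p, which restrains mTOR signalling, fell by 0.58 and miR-130a-3p by 0.33 on the log2 scale (edgeR adjusted p = 0.00533 and 0.00892). The miR-29a-3p call was lost without caNrf2 library 2 (adjusted p = 0.0577) or 3 (0.0516). The count of rises in this list was 1 without caNrf2 library 2 or 3, 4 without caNrf2 library 1 and 5 without ctrl library 1, and that of falls was 2 without caNrf2 library 1.

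The third list held 7 miRNAs set beside miR-132 and miR-212 for roles described in neurons. Not all are specific to neurons, and miR-125b-5p was abundant here, at 8084 ± 236 CPM in caNrf2 and 10532 ± 1768 CPM in ctrl libraries (SD, n = 3 each). Of 6 tested, 2 rose and 2 fell, or 66.7%, against 25.7% of all tested miRNAs, and the median log2 fold change was -0.13. The list was chosen with earlier results of these data known, so that share is a description. It shares miR-9-5p, miR-124-3p and miR-219a-5p with the neural list above, so the miR-9-5p rise is counted in both. miR-138-5p rose 11.0-fold, far more than any member, and miR-9-5p 1.61-fold, while miR-134-5p fell by 0.51 and miR-125b-5p by 0.38 on the log2 scale. With all libraries miR-9-5p had an edgeR adjusted p of 0.0219, and it missed the threshold without ctrl library 1 (0.0613) or caNrf2 library 1 (0.0527), 2 (0.0687) or 3 (0.0606). That of miR-125b-5p (0.0299) was lost without ctrl library 2 (0.0656) or caNrf2 library 1 (0.0595), 2 (0.0687) or 3 (0.0689).

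The miRNAs whose log2 CPM over the 6 libraries was most like that of each precursor's leading arm were taken from the 364 others that averaged 10 CPM or more. These correlations are a description over 6 libraries that fall into 2 genotypes. For miR-132-3p they were both miR-365 species named miR-365-2-5p and miR-365-3p (Pearson r = 0.96 and 0.95) and miR-1981-5p (0.95). For miR-212-3p they were miR-92a-1-5p (0.97), miR-222-5p (0.95) and miR-340-3p (0.95). For miR-210-3p they were miR-30c-1-3p (0.95), miR-181a-2-3p (0.94) and miR-107-3p (0.93), and for miR-31-5p miR-350-5p (0.95), miR-1983 (0.92) and miR-341-3p (0.91). Within the cluster, r was 0.92 between miR-132-5p and miR-212-5p and 0.59 between miR-132-3p and miR-212-3p.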

How the data were processed

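The authors deposited 1 file for each library with raw counts of reads per mature miRNA (1907 names), without normalization. CASAVA 1.8, cutadapt, Bowtie, featureCounts, edgeR and mm10 are named, per the submitters' processing notes, without order or settings. How multi-mapped reads were handled is not given in the sources used here. Groups came from the labels. No molecular identifiers are named, so intervals from counts cover counting error only.

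The quasi-likelihood test of edgeR 4.0.16 (R 4.3.3) was run on these counts with TMM factors, after filterByExpr at a minimum count of 10 and with genotype alone in the model, with p adjusted by Benjamini and Hochberg over 697 miRNAs, threshold 0.05. SEs came from the F statistic. Arm ratios (0.5 added to both counts) and shares were compared by two-sided exact permutation over 20 assignments. A limma 3.58.1 fit of arm ratios was added after seeing the data. The fits were checked on simulated counts. Alternatives were RLE, library totals, no 5 most abundant miRNAs, DESeq2 1.42.0, limma-voom, other filters, a replicate block, left-out libraries, thinning, pseudocounts and share denominators.

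The members and lists were chosen with earlier results of these data known. The text names the members, for each list up to 4 called miRNAs by p, and for each precursor the 3 with the highest Pearson r (log2 CPM, prior count 2). The cell type markers named were chosen after their values were seen. No library was a repeat of another in its group (lowest chi-square per degree of freedom 101).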

Additional observations from a re-analysis of the deposited data

How the results depend on the processing

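Of the members, no arm changed direction in any alternative fit. The miR-212-5p call held in 11 of 15 alternatives, and without 1 library its log2 fold change was 0.43 to 0.64. That of miR-31-5p was -0.62 to -0.25 without 1 library, and it passed with no filter (-0.38) and with the replicate block (-0.39, edgeR adjusted p = 0.0116). miR-132-3p passed with a 10 CPM minimum on the mean and in thinned libraries (0.28 in both). Accordingly 2 arms were higher in the last 2 settings, 1 was lower with no filter and with the block, and without 1 library 0 to 1 were higher and 0 to 1 lower. The wound list had 4 rises with library totals only and with DESeq2 and 5 with no filter, and without 1 library 1 to 5 rises and 2 to 4 falls. The list set beside miR-132 and miR-212 had 1 rise with the 10 CPM minimum, which left out miR-9-5p, and without 1 library 1 to 2 rises and 1 to 2 falls. Why these counts moved was not tested. Over all miRNAs 60 rose and 71 fell of 371 with the 10 CPM minimum (35.3%), against 98 and 81 of 697 with the standard filter (25.7%), and 91 rose and 92 fell with RLE size factors and 92 and 96 with DESeq2. Without 1 library the log2 arm ratio differences by exact test and by limma ran from -0.06 to 0.18 for miR-210, from -0.22 to 0.09 for miR-31, from -0.11 to 0.03 for miR-132 and from -0.55 to -0.37 for miR-212. The reversed differences were -0.064 for miR-210 without ctrl replicate 2, 0.089 for miR-31 without ctrl replicate 2 and 0.031 for miR-132 without ctrl replicate 3.

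Replicate numbers did not pair the libraries (correlations of same-numbered deviations 0.18, 0.11 and -0.22, and caNrf2 library 2 correlated best with ctrl library 3). With the replicate block 102 miRNAs rose and 87 fell, against 98 and 81 without it. miR-31-3p had the fewest counts of the members, 14 to 39 a library.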
